A study of Homo sapiens with 12 samples.

Results

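Pentamidine, an aromatic diamidine used against protozoal and Pneumocystis infections, changed a common set of nuclear genes in samples labelled PC3 and DU145, both established lines of human prostate cancer that need no androgen to grow. The genes described here are those that moved in the same direction after pentamidine in both lines, leaving out the genes encoded by mitochondrial DNA. A gene was counted as shared when its adjusted p over both lines was below 0.05 and the 3 pentamidine samples of each line lay entirely above, or entirely below, the 3 vehicle samples of that line. By this rule 1616 genes rose and 1617 fell out of 15209 tested, and "rose" and "fell" are used below only for such genes. The rule itself uses the counts of the same samples, so the values of the members are a description of the response and not a test of its existence.

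RNA with a poly(A) tail was sequenced from 12 samples, 3 for each line and treatment. Both lines were labelled wild type and were grown in DMEM with fetal bovine serum, and were exposed for 48 hours to pentamidine at 2.5 μmol/L or to vehicle. Each line is 1 established line, and nothing in the labels says that the 3 samples of a group came from separate cultures, so the p-values measure the spread between these samples, which may be technical. The study asked which genes and pathways respond to the drug.

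Total counts were 13514195 to 15131436 per sample, and the chi-square per gene between replicates averaged 1.72 to 7.30, above the value of about 1 that counting error gives. Vehicle replicate 1 of the PC3-labelled samples stood furthest from its group. Mitochondria-encoded genes took 3.79 to 3.91% of the counts with vehicle and 2.66 to 2.76% with pentamidine in PC3-labelled samples, and 4.41 to 4.66% and 1.97 to 2.07% in DU145-labelled samples. Known markers of the lines went partly against the labels. The epithelial adhesion genes EPCAM and CDH1, which both lines are known to express, had 0 to 2 and 0 to 10 counts over all 12 samples. KLK3, which encodes prostate-specific antigen, had 0 to 2, and the study states that neither line expresses this antigen. Keratin KRT8 separated the lines with 238 to 307 counts against 25835 to 38812. The study's methods state that the lines were authenticated by short tandem repeat profiling. The cause of the marker pattern was not tested, and the groups are therefore called PC3-labelled and DU145-labelled throughout. The summed counts of 6 markers of leukocytes, endothelium and fibroblasts were 7 to 48 per sample, and the leukocyte marker PTPRC had 0 to 1. These sums were 24 to 34 with vehicle and 7 to 9 with pentamidine in PC3-labelled samples, and 40 to 48 and 27 to 38 in DU145-labelled samples. Their part in the results was not tested. In bulk RNA a change in the number of cells of a kind and a change in RNA per cell cannot be told apart.

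The integrated stress response joins several stress sensors, among them kinases for unfolded protein, amino acid shortage and haem or mitochondrial damage, to the phosphorylation of the initiation factor eIF2. Bulk translation then falls while the mRNA of the transcription factor ATF4 is translated better. ATF4, with partners of the C/EBP family, binds C/EBP-ATF response elements and raises genes of amino acid synthesis, amino acid uptake and tRNA charging, as well as feedback and cell death regulators such as DDIT3 and TRIB3. NF-kB factors drive genes of inflammation and survival, and HSF1 drives the cytosolic heat shock proteins.

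Over both lines, with line as a term in the model, 2886 genes (19.0%) were higher and 2863 (18.8%) lower when the adjusted p had to lie below 0.05 (edgeR, quasi-likelihood test, Benjamini-Hochberg adjusted). The shared genes were 10.6% of those tested in each direction. Scaled by library size alone, the shared genes were 1882 higher and 1219 lower, so that the higher ones were 60.7% of the total. Among all genes tested, the samples of a line did not overlap between treatments for 7414 (48.8%) in PC3-labelled and 6401 (42.1%) in DU145-labelled samples. Non-overlap in both lines was met in the same direction by 3284 genes (21.6%) and in opposite directions by 564 (3.71%). Of the 3284, 51 did not pass the adjusted p. Most of the shared changes were small. The median log2 fold change over both lines was 0.42 for the genes that rose (quartiles 0.27 and 0.66) and -0.28 for those that fell (quartiles -0.41 and -0.21), beside 0.0043 for all genes tested. In both lines the change was under 1.5-fold for 919 of the higher genes and 1244 of the lower ones. More than a 2-fold change in each line was seen for 96 higher genes (0.631%) and 21 lower genes (0.138%). With at least 10 counts required in every sample these were 37 and 5 genes.

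**Figure D1:**
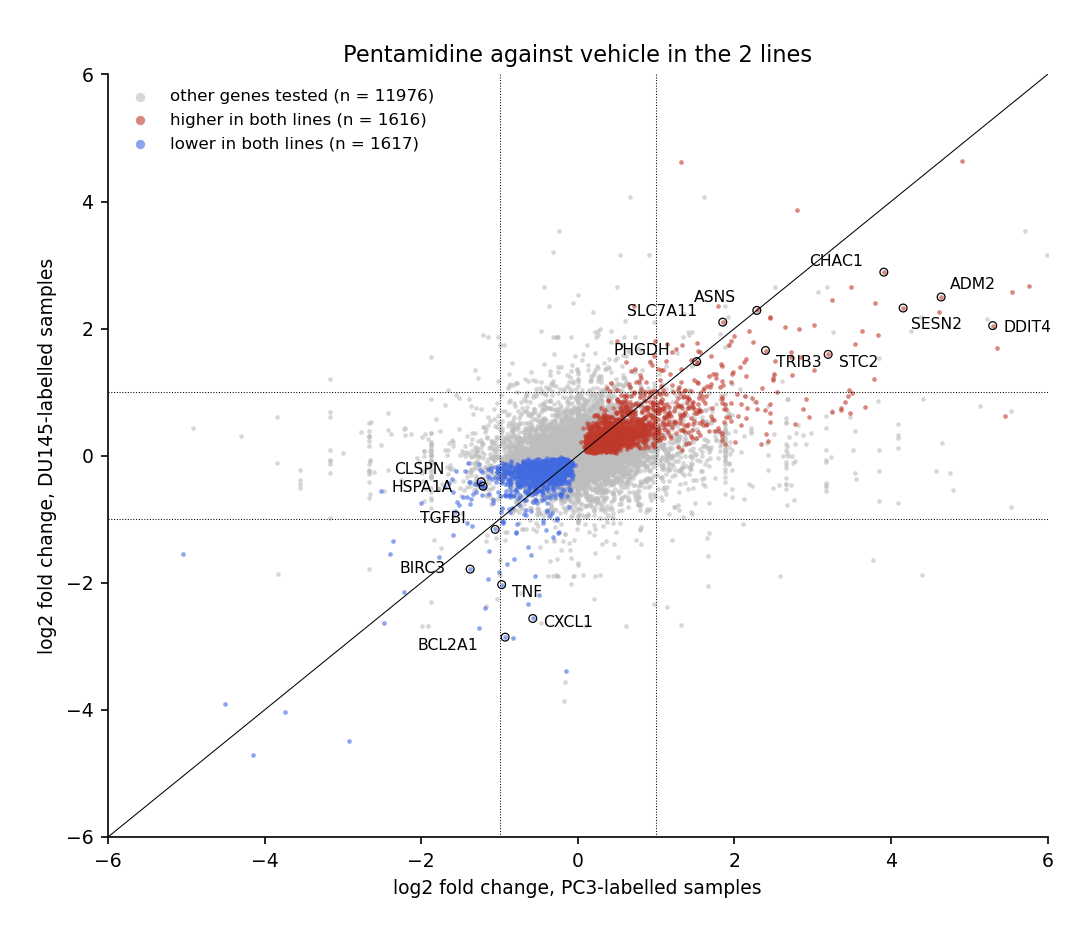
Log2 fold change after pentamidine in PC3-labelled samples (horizontal axis) against that in DU145-labelled samples (vertical axis), 1 point per gene, with the 1616 shared higher genes in red, the 1617 shared lower genes in blue and all other genes tested in grey. The diagonal marks equal change, dotted lines mark 2-fold change, 3 genes lie outside the axes, and more red and blue points lie on the PC3-labelled side of the diagonal.

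The shared response was larger in PC3-labelled samples for 1223 of the higher genes (75.7%) and 1255 of the lower genes (77.6%). The median log2 fold changes were 0.49 in PC3-labelled and 0.33 in DU145-labelled samples for higher genes, and -0.34 and -0.22 for lower genes. The difference between the lines itself, tested as the interaction of treatment and line, passed for 418 higher genes (25.9%), 397 of them with the larger change in PC3-labelled samples, and for 452 lower genes (28.0%), 405 of them larger in PC3-labelled samples. Of all genes tested, 3098 (20.4%) had such an interaction. A further 187 shared genes rose by more than 2-fold in PC3-labelled samples alone and 25 in DU145-labelled samples alone, against 53 and 25 that fell by that much in 1 line.

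Promoter sequence was then compared between the groups of genes, since the stress factors bind known elements. RefSeq promoters of GRCh38.p14, each of 300 bases with 250 before and 50 after the start of a gene, were matched by symbol to 10856 of the 15209 genes tested (71.4%). The letters TGATGNAA of the C/EBP-ATF response element, searched on both strands, stood in at least 1 promoter of 296 of these genes (2.73%). Of the genes that rose by more than 2-fold in each line, 13 of the 64 with a promoter (20.3%) held them. They were present in 60 (4.96%) of the shared higher genes and 24 (1.81%) of the shared lower genes. Among all promoters of the table the share was 4.46%. In the pathway lists, 7 of 16 tRNA synthetases held the element (43.8%), 5 of 13 amino acid transporters (38.5%), 5 of 16 integrated stress response genes (31.2%) and 3 of 15 genes of amino acid synthesis. The stretches around it are shown for a transcription factor, a repressor, a glutathione-degrading enzyme, an amino acid enzyme, a tRNA synthetase and a cell death gene, each in the direction of its gene with the element in capitals. They lie at chr1:212565181-212565258 (plus strand), chr14:75427971-75428021 (plus), chr15:40953251-40953280 (plus), chr7:97872458-97872487 (minus), chr7:30594834-30594863 (plus) and chr12:116881474-116881551 (minus) in GRCh38.p14.
ATF3: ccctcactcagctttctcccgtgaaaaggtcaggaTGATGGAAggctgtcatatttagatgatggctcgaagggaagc
JDP2: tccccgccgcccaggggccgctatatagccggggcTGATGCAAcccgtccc
CHAC1: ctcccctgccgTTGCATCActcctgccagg
ASNS: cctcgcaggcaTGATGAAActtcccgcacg
GARS: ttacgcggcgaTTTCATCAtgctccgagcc
HRK: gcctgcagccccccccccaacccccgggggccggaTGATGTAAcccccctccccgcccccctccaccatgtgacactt
The element ran in the direction of the gene in ATF3, JDP2, ASNS and HRK and on the opposite strand in CHAC1 and GARS. A match is a description of letters and not evidence that a factor is bound there. The window held no such match in the promoter of TRIB3, SESN2 or DDIT4 used here, which says only that the letters are not in it.

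**Figure D2:**
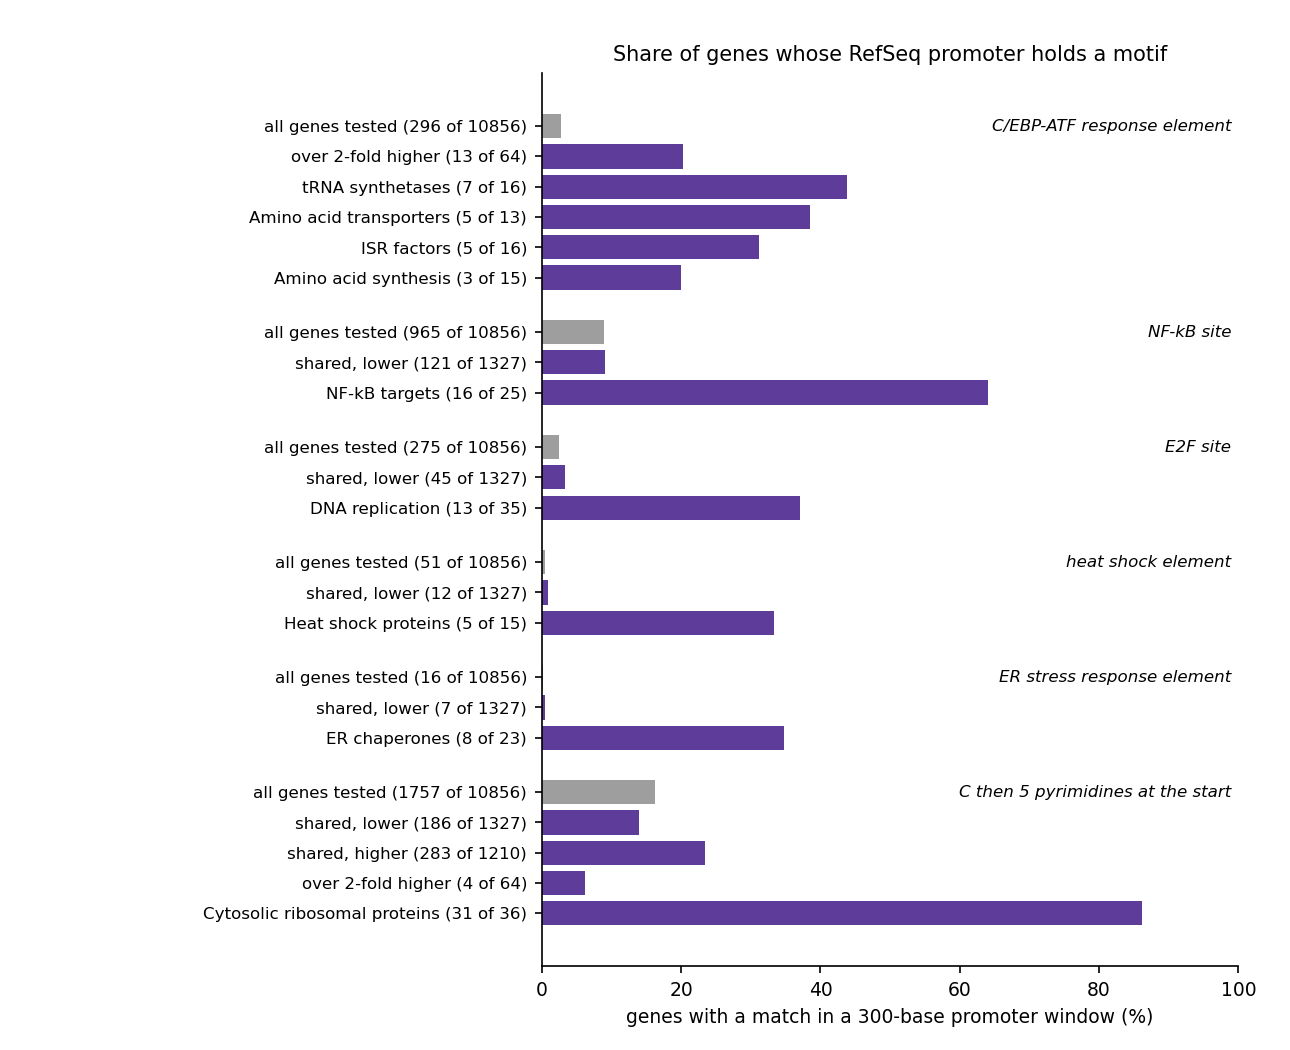
Percent of genes with a RefSeq promoter that hold each motif (horizontal axis) for all genes tested in grey and for groups of genes in purple, with the number of genes beside each name. The C/EBP-ATF response element stood in 2.73% of all genes tested and in 43.8% of the tRNA synthetases.

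Of the 35 gene lists examined, that of the integrated stress response had the highest median. Of 18 factors, sensors and feedback genes tested, 10 rose and 1 fell. The median log2 fold change was 0.93 over both lines, 1.25 in PC3-labelled and 0.51 in DU145-labelled samples. The list of amino acid synthesis lay close below, at 0.88, 1.23 and 0.48 in the same order. By the list medians per sample, DU145-labelled pentamidine samples lay at 0.29 to 0.48 for the stress response and at 0.40 to 0.53 for amino acid synthesis. The lists were chosen with earlier results of these data known. ATF4 (ENSG00000128272, chr22:39519695-39522685), the transcription factor of this response, had 387, 413 and 432 CPM with vehicle and 894, 929 and 861 CPM with pentamidine in PC3-labelled samples, and 368, 385 and 363 CPM with vehicle and 744, 736 and 702 CPM with pentamidine in DU145-labelled samples. Gene coordinates are those of the deposited table, on GRCh38. CPM here is the count scaled to the library size after TMM normalization, per 1000000 counts, and is not corrected for gene length. The groups did not overlap in either line, which the rule requires of every gene said here to have risen or fallen. The log2 fold change was 1.12 ± 0.051 (SE) in PC3-labelled and 0.97 ± 0.032 (SE) in DU145-labelled samples, n = 3 per group (adjusted p = 1.48e-11, edgeR). TRIB3 (ENSG00000101255, chr20:362835-397559), a pseudokinase that ATF4 induces and that restrains it, had 136, 126 and 133 CPM with vehicle and 705, 690.1 and 689.7 CPM with pentamidine in PC3-labelled samples. Its values were 85.7, 89.2 and 84.7 CPM with vehicle and 281, 269.6 and 267 CPM with pentamidine in DU145-labelled samples, again without overlap. The log2 fold change of TRIB3 was 2.40 ± 0.051 (SE) in PC3-labelled and 1.66 ± 0.039 (SE) in DU145-labelled samples (adjusted p = 2.57e-10, edgeR). DDIT3, which encodes the transcription factor CHOP, went from 4.71 ± 1.32 to 31.5 ± 3.78 CPM (SD, n = 3) in PC3-labelled and from 5.59 ± 0.0548 to 13.4 ± 1.65 CPM in DU145-labelled samples.

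ATF3, a stress-induced repressor, had 2.78, 2.26 and 2.43 CPM with vehicle and 35.8, 38.0 and 29.8 CPM with pentamidine in PC3-labelled samples, a rise of 13.8-fold. In DU145-labelled samples it had 0.894, 1.12 and 0.550 CPM with vehicle and 4.07, 5.16 and 4.37 CPM with pentamidine, a rise of 5.28-fold. CHAC1, an enzyme that breaks down glutathione, rose from 8.85 ± 0.851 to 133 ± 3.53 CPM (SD, n = 3) and from 9.36 ± 1.21 to 69.1 ± 2.28 CPM in the same order of lines. Every pentamidine sample of these genes stood above every vehicle sample. JDP2, a relative of ATF3, had a log2 fold change of 4.61 ± 0.21 (SE) in PC3-labelled and 2.26 ± 0.18 (SE) in DU145-labelled samples (adjusted p = 2.97e-07, edgeR). CEBPB and CEBPG, partners of ATF4, rose by 1.04 and 1.27 on the log2 scale over both lines. NUPR1, a small stress-induced chromatin protein, had 8, 19 and 9 counts with vehicle and 365, 381 and 342 with pentamidine in PC3-labelled samples, and 0, 0 and 0 and 4, 4 and 1 in DU145-labelled samples, too few for a fold. Most sensors were not shared. The eIF2 kinases EIF2AK3, EIF2AK4 and EIF2AK1 had log2 fold changes of -0.35, -0.093 and -0.055, and the mitochondrial protease gene OMA1 had -0.11. Only KIAA0141, which encodes the relay protein DELE1, rose among the sensors named, by 0.17, while EIF2AK2, the kinase for double-stranded RNA, was the gene of this list that fell (-0.24).

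**Figure D3:**
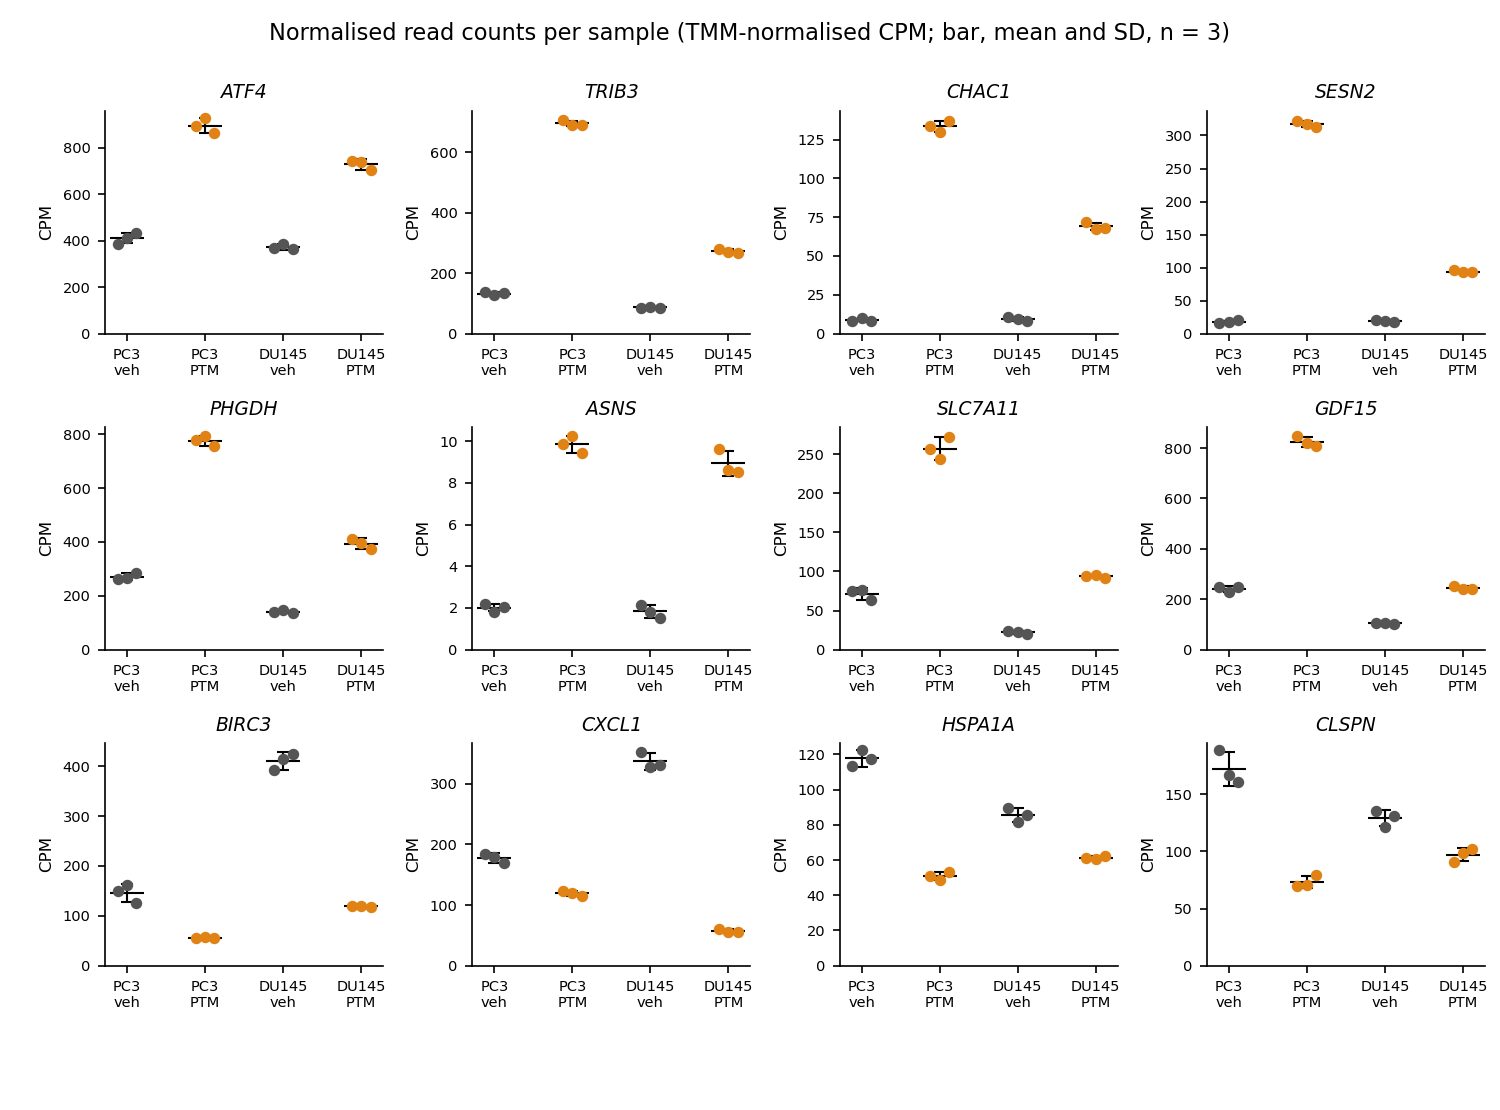
TMM-normalised CPM (vertical axes, each starting at 0) of 12 genes in every sample of the 4 groups, with grey points for vehicle (veh), orange points for pentamidine (PTM) and bars for the mean and SD of 3 samples. All 12 are shared genes, so by the rule orange and grey points do not overlap within a line, from ATF4 among those that rose to CLSPN among those that fell.

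Most genes of amino acid synthesis rose. Of 23 genes tested, 14 rose and 2 fell, and the median was 0.88. ASNS, which makes asparagine, had 2.17, 1.81 and 2.06 CPM with vehicle and 9.85, 10.2 and 9.45 CPM with pentamidine in PC3-labelled samples. The DU145-labelled samples had 2.16, 1.82 and 1.51 CPM and 9.64, 8.62 and 8.54 CPM. Its fold was 4.88 and 4.88, among the most equal changes of the genes past 2-fold. PHGDH, the first enzyme of serine synthesis, was as even between the lines, with 262, 265 and 285 CPM with vehicle and 777, 793 and 756 CPM with pentamidine in PC3-labelled samples and 140.4, 146 and 136 CPM and 412, 396 and 373 CPM in DU145-labelled samples. Its log2 fold change was 1.52 ± 0.050 (SE) in PC3-labelled and 1.48 ± 0.037 (SE) in DU145-labelled samples (adjusted p = 2.35e-14, edgeR). The next enzymes of serine synthesis, PSAT1 and PSPH, rose by 1.84 and 1.15. The mitochondrial folate enzymes SHMT2, MTHFD2 and ALDH1L2 rose by 1.02, 1.38 and 3.07, while their cytosolic counterparts SHMT1 and MTHFD1 had -0.18 and -0.17 and were not shared. PCK2, the mitochondrial form of phosphoenolpyruvate carboxykinase, went from 29.3 ± 2.30 to 237 ± 3.10 CPM (SD, n = 3) in PC3-labelled and from 21.3 ± 2.03 to 88.5 ± 4.09 CPM in DU145-labelled samples. CBS and GPT2, enzymes of cysteine and alanine synthesis, rose by 1.23 and 1.30. The genes that fell were GOT2, a mitochondrial transaminase (-0.16), and ALDH18A1, an enzyme of proline synthesis (-0.27), beside a rise of the later proline enzyme PYCR1 (0.63).

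Amino acid transporters split by member. Of 16 tested, 10 rose and 4 fell, with a median of 0.60. SLC7A11, the cystine importer, had 74.8, 75.8 and 62.9 CPM with vehicle and 256, 243 and 272 CPM with pentamidine in PC3-labelled samples. It had 23.8, 22.2 and 19.8 CPM with vehicle and 94.3, 95.6 and 92.2 CPM with pentamidine in DU145-labelled samples, so that all pentamidine samples were above all vehicle samples. SLC1A4 and SLC6A9, which carry neutral amino acids and glycine, rose most in the list over both lines, by 12.4-fold and 14.2-fold in PC3-labelled and 3.90-fold and 3.72-fold in DU145-labelled samples. In DU145-labelled samples alone SLC7A11 rose most, by 4.29-fold. SLC7A5 and its heavy chain SLC3A2, which together import leucine, rose by 1.51 and 1.24 on the log2 scale. The members that fell were SLC7A2, SLC6A6, SLC7A6 and SLC36A1, with log2 fold changes of -0.85, -0.84, -0.46 and -0.27. They include transporters of arginine (SLC7A2) and of taurine (SLC6A6).

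Cytosolic aminoacyl-tRNA synthetases, which load tRNAs with amino acids, split by member too. Of 20 tested, 12 rose and 5 fell, with a median of 0.57. GARS rose from 347 ± 6.88 to 1038 ± 31.0 CPM (SD, n = 3) in PC3-labelled and from 314 ± 2.24 to 601 ± 4.42 CPM in DU145-labelled samples. CARS, SARS, WARS and MARS, for cysteine, serine, tryptophan and methionine, rose by 1.29, 1.46, 1.55 and 1.09 in PC3-labelled and by 1.07, 0.82, 0.70 and 0.99 in DU145-labelled samples. The 7 members with the element TGATGNAA in a promoter (AARS, CARS, GARS, IARS, MARS, NARS and TARS) were all among those that rose, at 0.31 to 1.26. AARS, IARS and NARS lay between these. The 5 that fell were FARSA, FARSB, KARS, RARS and VARS, at -0.24 to -0.090, and DARS, HARS and QARS did not pass.

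**Figure D4:**
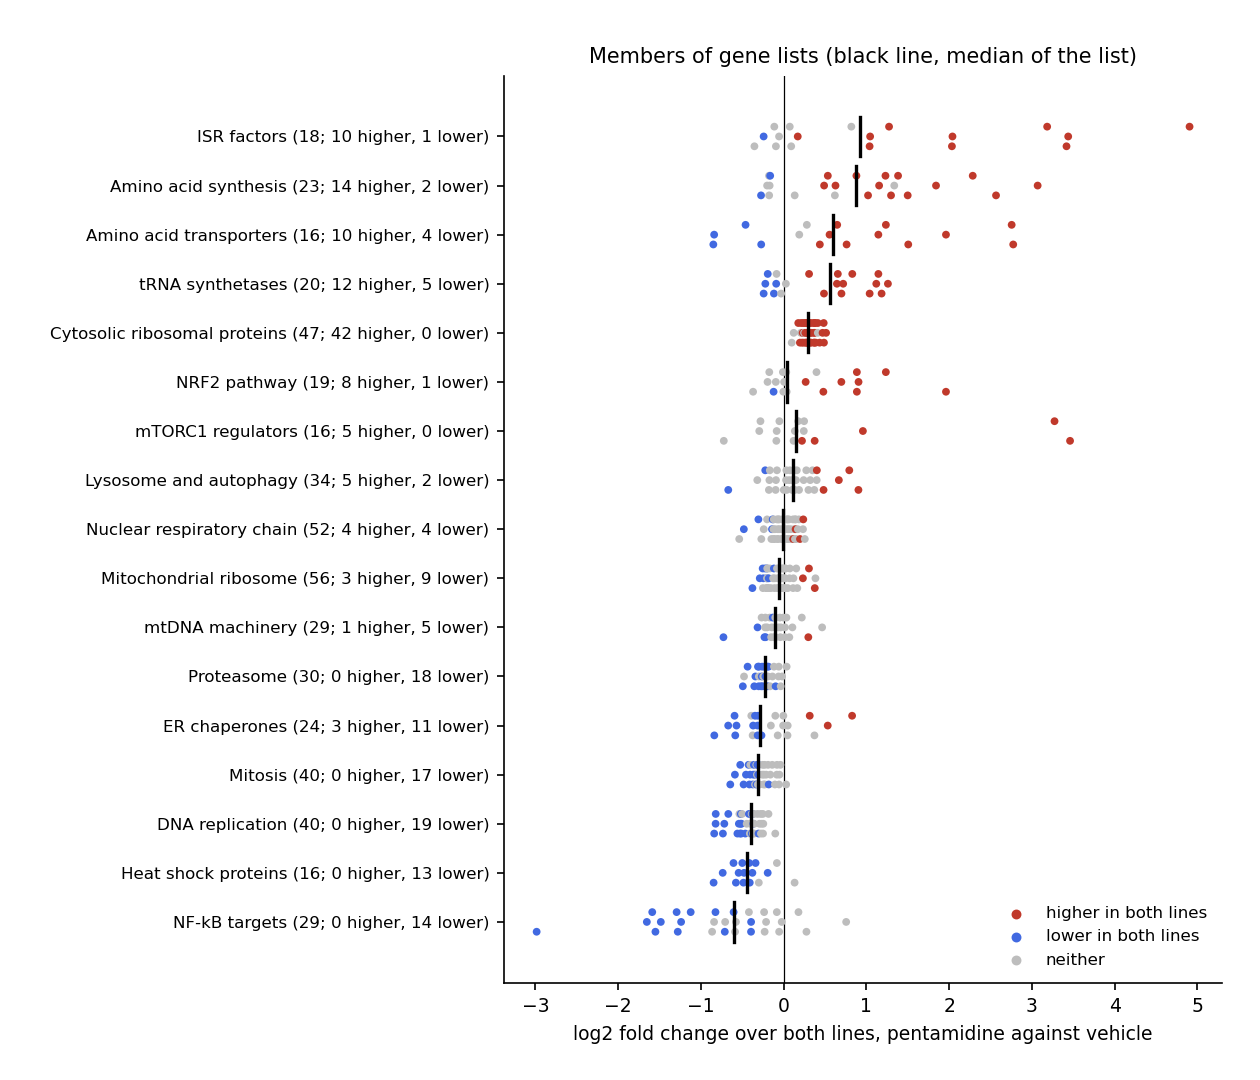
Log2 fold change over both lines (horizontal axis) of each tested member of 17 gene lists (rows), with red points for members that rose in both lines, blue for members that fell in both, grey for the rest and a black line for the median. The amino acid and integrated stress response lists lie mostly above 0, with medians of 0.57 to 0.93, and the NF-kB list lies lowest at -0.60.

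Among genes for secreted stress factors 5 of 11 tested rose and 1 fell (median 0.36). GDF15, a circulating stress hormone, had 248, 229 and 250.3 CPM with vehicle and 846, 819 and 807 CPM with pentamidine in PC3-labelled samples, and 107, 104 and 103 CPM with vehicle and 253, 241 and 239.8 CPM with pentamidine in DU145-labelled samples. The ratio was 3.40 in PC3-labelled and 2.34 in DU145-labelled samples. ADM2, a peptide of the calcitonin family, rose from 1.97 ± 0.837 to 50.2 ± 1.21 CPM and from 3.87 ± 0.322 to 21.9 ± 0.161 CPM (SD, n = 3). STC2, a secreted glycoprotein, and VEGFA, the vascular growth factor, rose by 2.45 and 1.35. INHBE, an inhibin subunit, had 1, 0 and 0 counts with vehicle and 24, 18 and 22 with pentamidine in PC3-labelled samples, and 0, 1 and 0 and 3, 3 and 2 in DU145-labelled samples. Some regulators of mTORC1, the kinase complex that senses amino acids, rose. SESN2, a leucine sensor, had 16.4, 17.3 and 19.8 CPM with vehicle and 322, 317 and 313 CPM with pentamidine in PC3-labelled samples. Its DU145-labelled samples had 20.2, 18.9 and 17.3 CPM with vehicle and 96.1, 93.1 and 92.6 CPM with pentamidine. DDIT4 (ENSG00000168209, chr10:72273920-72276036), an inhibitor upstream of mTORC1, had 6.71, 6.99 and 8.62 CPM with vehicle and 291, 301 and 284 CPM with pentamidine in PC3-labelled samples and 31.6, 25.9 and 28.1 CPM and 127, 114 and 113 CPM in DU145-labelled samples. DDIT4 rose by more in PC3-labelled samples, with an interaction of -3.25 (adjusted p = 1.07e-17, edgeR) on the log2 scale, DU145-labelled minus PC3-labelled. Of 16 mTORC1 regulators tested 5 rose and none fell in both lines, and their median was 0.16. The list holds restraints such as the sestrins and TSC genes, and also the Rag GTPases and FLCN, which act in the activation of mTORC1 by amino acids. TSC2 and the Rag GTPase RRAGC rose by 0.22 and 0.38. EIF4EBP1, which blocks cap-dependent translation, rose by 0.96, whereas SESN1, DEPTOR and TSC1 did not pass (-0.084, 0.24 and 0.12).

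Ferritin and other genes of iron, oxidant and metal handling rose in part. In the list of the antioxidant factor NRF2, 8 of 19 genes rose and 1 fell, but the median was 0.037. FTH1 and FTL, the heavy and light chains of ferritin, went up by 2.72-fold and 2.23-fold in PC3-labelled and 2.03-fold and 1.58-fold in DU145-labelled samples, although both have near-identical copies in the genome that could share reads. HMOX1, which degrades haem, went from 221 ± 7.66 to 587 ± 31.9 CPM and from 613 ± 18.3 to 792 ± 23.1 CPM (SD, n = 3). TXNRD1 and NQO1, reductases of this pathway, rose by 0.89 and 0.70. The glutathione synthesis genes GCLC and GCLM did not pass, at -0.0034 and -0.19. The letters TGACNNNGC of the antioxidant response element stood in the promoters of 4 of 14 genes of this list (28.6%) and of 19.5% of all genes tested. MT1F, a metallothionein with close paralogs, rose by 2.33, and SLC30A1, a zinc exporter, by 0.49. The list of metallothionein and zinc genes held 6 tested, of which these 2 rose and none fell, and its median was 0.36 over both lines, 0.68 in PC3-labelled and -0.050 in DU145-labelled samples. Of 34 lysosome and autophagy genes 5 rose and 2 fell (14.7% and 5.88%, beside 10.6% of all genes tested in each direction, with a median of 0.12). Those that rose included the autophagy proteins MAP1LC3B, WIPI1 and SQSTM1 at 0.90, 0.79 and 0.67, while GLA, a lysosomal galactosidase, fell by 0.67 on the log2 scale.

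Of 23 cell death regulators tested, 5 rose and 2 fell (21.7% and 8.70%, beside 10.6% of all genes in each direction), and the median was 0.071. HRK, a BH3-only activator of apoptosis, had 2, 2 and 0 counts with vehicle and 13, 8 and 20 with pentamidine in PC3-labelled samples, and 6, 6 and 5 and 20, 33 and 44 in DU145-labelled samples. BBC3, the BH3-only protein PUMA, had 3.45, 3.62 and 2.87 CPM with vehicle and 8.63, 9.66 and 10.3 CPM with pentamidine in PC3-labelled samples, and 1.34, 2.45 and 2.34 CPM with vehicle and 6.85, 7.60 and 6.60 CPM with pentamidine in DU145-labelled samples. Neither overlapped between treatments, and BBC3 rose by 2.86-fold and 3.40-fold. PMAIP1, a further BH3-only gene, rose by 0.56, and so did the survival gene BCL2L1, by 0.47. BIRC3, an inhibitor of apoptosis that NF-kB induces, fell, from 146 ± 17.5 to 56.2 ± 1.01 CPM in PC3-labelled and from 410.4 ± 17.1 to 119 ± 1.03 CPM in DU145-labelled samples (SD, n = 3). BCL2A1, another survival gene under NF-kB, fell by 2.24 on the log2 scale over both lines. CDKN1A, the cyclin kinase inhibitor p21, had 50.1, 59.1 and 54.8 CPM with vehicle and 101, 95.2 and 107 CPM with pentamidine in PC3-labelled samples and 112, 109 and 101 CPM and 139, 139 and 137 CPM in DU145-labelled samples. GADD45A, a growth arrest gene, rose by 0.96, whereas BAX, a pore-forming activator of apoptosis, had -0.023 and did not pass.

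NF-kB targets fell in part, and to unequal degrees in the lines. Of 29 tested, none rose and 14 fell. The median was -0.60 over both lines, -0.15 in PC3-labelled and -1.28 in DU145-labelled samples, and the interaction passed for 20 of the 29. CXCL1 (ENSG00000163739, chr4:73869393-73871242), a neutrophil chemokine, had 185, 179 and 169 CPM with vehicle and 123, 119.9 and 115 CPM with pentamidine in PC3-labelled samples. In DU145-labelled samples it had 352, 327 and 331 CPM with vehicle and 61.1, 55.2 and 54.8 CPM with pentamidine. It fell without overlap in each line, with a log2 fold change of -0.57 ± 0.054 (SE) in PC3-labelled and -2.56 ± 0.042 (SE) in DU145-labelled samples (adjusted p = 2.31e-04, edgeR). TNFAIP3 and NFKBIA, feedback inhibitors that NF-kB itself induces, fell by 1.28 and 1.24. ICAM1, an adhesion molecule, fell by 1.12, and REL, a subunit of the factor, by 0.60. The subunit gene RELA had -0.054 and did not pass. TNF, a cytokine, fell by 1.65. CSF2, a myeloid growth factor, fell from 42, 77 and 51 to 6, 7 and 9 counts in PC3-labelled and from 1, 5 and 2 to 0, 0 and 0 in DU145-labelled samples. IL6, CCL20 and CXCL2, which were chosen after their values were seen, had log2 fold changes of opposite sign, 1.14, 0.98 and 0.79 in PC3-labelled and -2.38, -2.34 and -1.16 in DU145-labelled samples. An NF-kB site stood in a promoter of 16 of 25 genes of this list (64.0%), 965 of all genes tested (8.89%) and 121 shared lower genes (9.12%). Sites of CXCL1, NFKBIA and BIRC3 are shown with the match in capitals, with both matches of BIRC3, at chr4:73869279-73869358 (plus strand), chr14:35404786-35404865 (minus), chr11:102317250-102317329 (plus) and chr11:102317314-102317393 (plus) in GRCh38.p14, each in the direction of its gene.
CXCL1: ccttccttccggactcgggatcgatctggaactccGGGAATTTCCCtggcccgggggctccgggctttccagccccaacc
NFKBIA: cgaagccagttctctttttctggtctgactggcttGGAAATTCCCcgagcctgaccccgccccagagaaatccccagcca
BIRC3: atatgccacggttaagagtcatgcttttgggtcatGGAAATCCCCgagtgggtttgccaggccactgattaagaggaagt
BIRC3: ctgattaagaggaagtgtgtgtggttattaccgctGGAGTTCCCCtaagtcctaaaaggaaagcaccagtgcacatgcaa
Interferon genes, another immune list, had no gene that rose and 3 that fell of 20 tested. Of all genes tested, 10.6% rose and 10.6% fell. The 3 interferon genes that fell were OAS3, DDX58 and IFIH1, at -0.70, -0.43 and -0.42, and the median of the list was -0.12.

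Cytosolic chaperones fell. Of 16 genes of the heat shock list 13 fell and none rose, and the median was -0.45. HSPA8 (ENSG00000109971, chr11:123057489-123063230), the constitutive HSP70 among the shared genes with the highest counts, had 3525, 3522 and 3821 CPM with vehicle and 2122, 2303 and 2166 CPM with pentamidine in PC3-labelled samples. It had 4205, 4292 and 4259.8 CPM with vehicle and 3113, 3201 and 3138 CPM with pentamidine in DU145-labelled samples. The fall was -0.72 ± 0.047 and -0.43 ± 0.026 (SE) on the log2 scale, without overlap in either line (adjusted p = 2.32e-07, edgeR). HSPA1A and HSPA1B, the inducible forms, which are near-identical copies and could share reads, fell by 0.85 and 0.74. HSP90AA1 and HSP90AB1 fell by 0.50 and 0.19, and the cochaperones HSPH1, DNAJA1 and STIP1 by 0.61, 0.54 and 0.42. HSF1, the factor that drives these genes, had 0.13 (adjusted p = 0.0203, edgeR) and was not shared. A heat shock element stood in a promoter of 5 of 15 of these genes (33.3%), beside 12 (0.904%) of the shared lower genes and 51 (0.470%) of all genes tested. The promoter of HSPA8 held a match within chr11:123062171-123062199 and another within chr11:123062346-123062374 (minus strand). The stretch at chr11:123062346-123062374, with the match in capitals, read as follows.
HSPA8: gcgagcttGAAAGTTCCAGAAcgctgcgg
Chaperones of the endoplasmic reticulum fell in part, with 11 lower and 3 higher of 24 tested and a median of -0.29. HSP90B1, CALR, PDIA4, SDF2L1 and MANF fell by 0.59, 0.57, 0.58, 0.84 and 0.67. The 3 that rose were XBP1, ATF6 and HERPUD1, at 0.83, 0.32 and 0.53, of which the first encode transcription factors of the unfolded protein response. HSPA5, the main chaperone of this compartment, had 0.54 in PC3-labelled and -0.44 in DU145-labelled samples. An ER stress response element stood in 8 of 23 promoters of this list (34.8%), 7 shared lower genes (0.528%) and 16 of all genes tested (0.147%). The promoter of HSP90B1 held it at chr12:103930316-103930344 and at chr12:103930211-103930239 (plus strand), of which the latter is shown.
HSP90B1: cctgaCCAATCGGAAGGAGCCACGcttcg

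Protein turnover and protein synthesis genes moved by small amounts. Proteasome subunits had 18 genes that fell and none that rose of 30 tested. Their median was -0.23 over both lines, -0.27 in PC3-labelled and -0.16 in DU145-labelled samples, and the interaction passed for 8 of the 30. PSMD1, PSMD11 and PSMC1 fell by 0.49, 0.44 and 0.34 on the log2 scale. By contrast 42 of 47 cytosolic ribosomal protein genes rose and none fell, and this direction held under every scaling tried. The median was 0.30 over both lines, 0.37 in PC3-labelled and 0.24 in DU145-labelled samples, and the interaction passed for 7 of the 47. RPS18, RPS12 and RPL3 rose by 0.51, 0.49 and 0.48. Ribosomal protein genes have many processed copies in the genome, and how reads were divided among them is not given in the sources used here. The elongation factors EEF2 and EEF1A1, the latter with a near-identical copy (EEF1A1P5), rose by 0.45 and 0.40. A C followed by 5 pyrimidines between 5 bases before and 10 after the start, as in transcripts whose translation follows mTORC1, stood in 31 of 36 ribosomal protein promoters (86.1%), 283 (23.4%) of the shared higher genes and 1757 (16.2%) of all genes tested. It stood in 186 of the 1327 shared lower genes with a promoter and in 4 of the 64 genes that rose by more than 2-fold in each line (6.25%). Ribosome biogenesis genes, in contrast, had 8 that fell and none that rose of 26 tested (median -0.11), among them UTP20 and BOP1 at -0.46 and -0.33. In the list medians by sample, vehicle samples of the PC3-labelled cells spread from -0.14 to 0.13 for ribosomal proteins, beside 0.33 to 0.43 in PC3-labelled and 0.18 to 0.29 in DU145-labelled pentamidine samples.

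**Figure D5:**
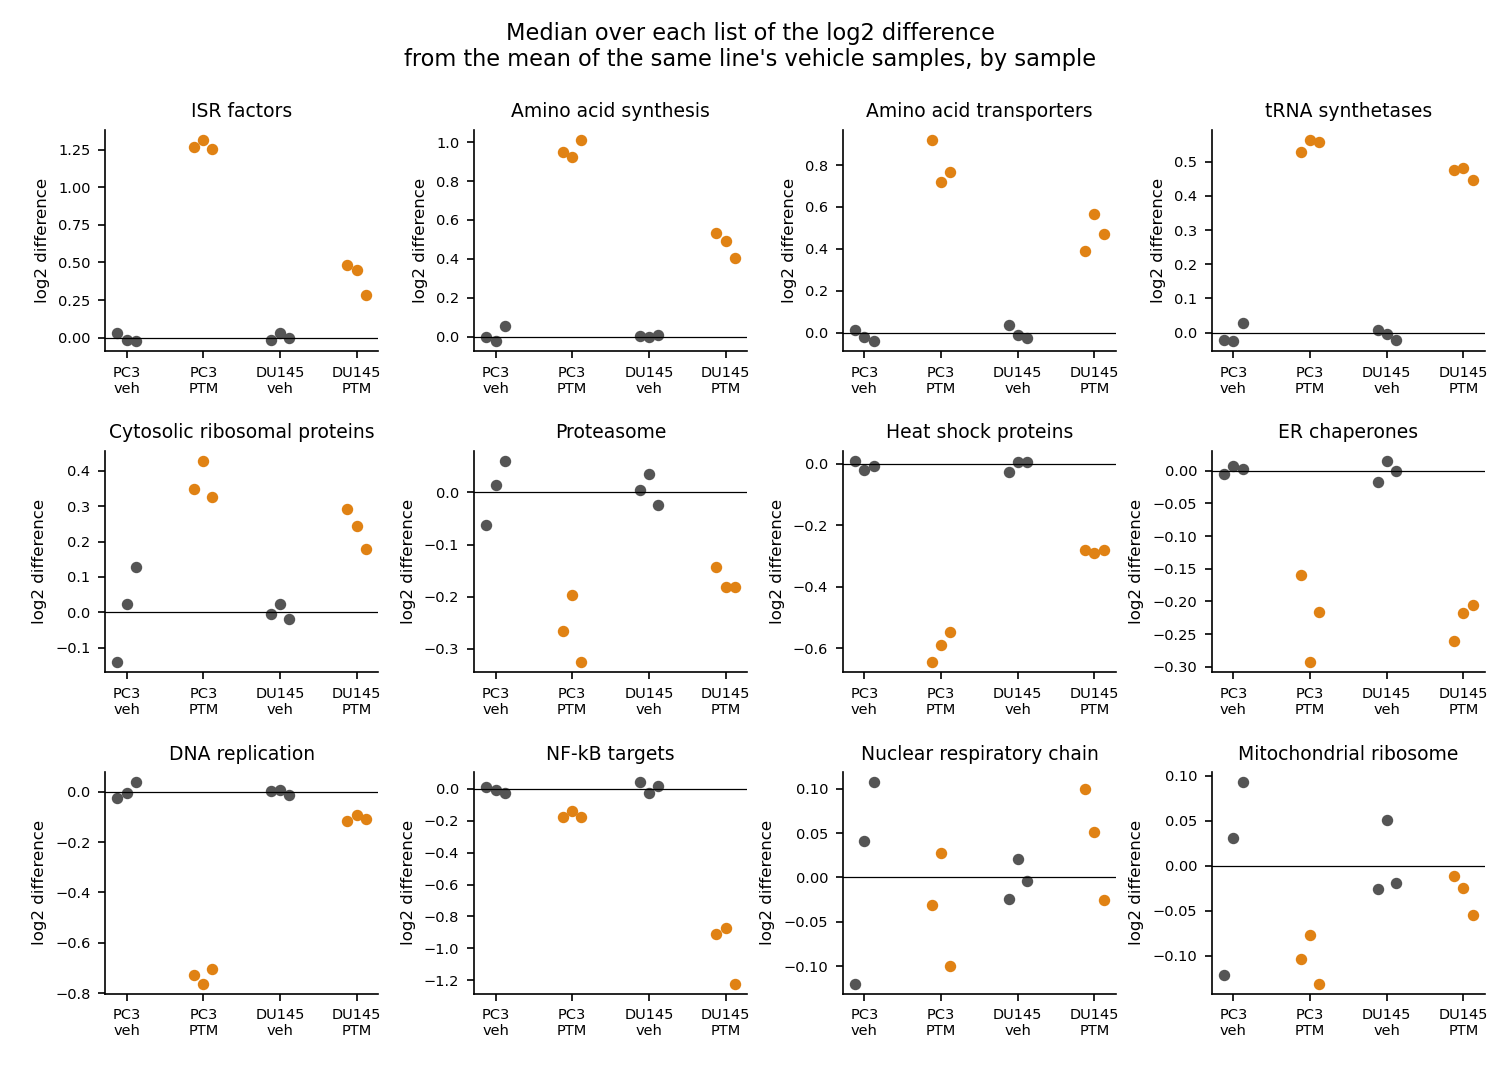
Median over each of 12 gene lists of the log2 difference of a sample from the mean of the vehicle samples of its line (vertical axes), with grey points for vehicle (veh) and orange points for pentamidine (PTM). Pentamidine samples lay at 1.25 to 1.32 in PC3-labelled and 0.29 to 0.48 in DU145-labelled pentamidine samples for integrated stress response factors, while for the nuclear respiratory chain they overlapped with vehicle.

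Cell cycle genes fell in part, by more in PC3-labelled samples. Of 40 DNA replication genes 19 fell and none rose, with medians of -0.40 over both lines, -0.74 in PC3-labelled and -0.10 in DU145-labelled samples, and the interaction passed for all 40. CLSPN, an adaptor of the replication checkpoint, had 189, 166 and 161 CPM with vehicle and 69.8, 70.4 and 78.9 CPM with pentamidine in PC3-labelled samples. The DU145-labelled samples had 135, 122 and 131 CPM with vehicle and 90.8, 98.6 and 102 CPM with pentamidine, so the groups were apart there too. MCM10, ORC1 and FEN1, for origin firing, origin recognition and flap removal, fell by 0.84, 0.73 and 0.82. The E2F letters TTTCGCGC or TTTGGCGC stood in promoters of 13 of 35 of these genes (37.1%), 45 (3.39%) of the shared lower genes and 275 (2.53%) of all genes tested. Of 40 mitosis genes 17 fell and none rose (median -0.31), and 37 had an interaction. ANLN, ECT2 and MKI67 fell by 0.64, 0.59 and 0.52. Among cyclins and their inhibitors 4 rose and 2 fell of 16 tested, beside 10.6% of all genes tested in each direction. CDKN2B, an inhibitor of CDK4 and CDK6, rose by 0.92 and CCND3, a D-type cyclin, fell by 0.59, while CCND1 and MYC had 0.0040 and 0.0087.

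Nuclear genes of mitochondria differed by group. Of 52 nuclear genes of the respiratory chain 4 rose and 4 fell (7.69% each, beside 10.6% of all genes tested in each direction), with a median of -0.0019. SDHA and ATP5G3 fell by 0.48 and 0.31, and COX5B and NDUFS4 rose by 0.24 and 0.20. Mitochondrial ribosomal proteins had 3 that rose (5.36%) and 9 that fell (16.1%) of 56 (median -0.059). In the machinery of mitochondrial DNA 1 of 29 rose and 5 (17.2%) fell (median -0.10). TFAM, which packages and transcribes mitochondrial DNA, had 176, 158 and 149 CPM with vehicle and 115, 117 and 124 CPM with pentamidine in PC3-labelled samples. It had 140.1, 146 and 146 CPM with vehicle and 122, 130.0 and 128 CPM with pentamidine in DU145-labelled samples, without overlap, and its log2 fold change was -0.44 ± 0.062 (SE) in PC3-labelled and -0.19 ± 0.040 (SE) in DU145-labelled samples (adjusted p = 2.61e-04, edgeR). POLRMT, the mitochondrial RNA polymerase, fell by 0.23, and PPARGC1B, a coactivator of mitochondrial genes, by 0.73. Of 27 genes of mitochondrial RNA handling 8 (29.6%) fell and 1 rose (median -0.11), and FASTKD5, FASTKD3 and TRMT10C, which act in RNA processing, fell by 0.45, 0.45 and 0.43. NRF1, a transcription factor of nuclear respiratory genes, had a log2 fold change of -0.21 ± 0.086 (SE) in PC3-labelled and -0.089 ± 0.083 (SE) in DU145-labelled samples (adjusted p = 0.0632, edgeR). Mitochondrial chaperones and proteases split, with 4 higher and 4 lower of 18 (22.2% each). GRPEL2, LONP1 and HSPA9 rose by 0.80, 0.46 and 0.37, whereas HSPD1 and CLPB fell by 0.26 and 0.41.

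Among genes of carbon metabolism, glycolysis and hypoxia genes had 5 that rose (17.9%) and 10 that fell (35.7%) of 28 tested, beside 10.6% of all genes in each direction (median -0.11). NDUFA4L2, a hypoxia-induced paralog of a respiratory subunit, had 11, 12 and 16 counts with vehicle and 72, 119 and 81 with pentamidine in PC3-labelled samples, and 1, 2 and 0 and 12, 15 and 23 in DU145-labelled samples. SLC2A1, the glucose importer, rose by 0.59, while LDHA and PFKFB3, which form lactate and speed glycolysis, fell by 0.34 and 0.67. Of 25 cholesterol synthesis genes 1 rose and 4 fell (4.0% and 16%), and of 14 fatty acid synthesis genes 1 rose and 2 fell (7.14% and 14.3%), set against the same 10.6%. SREBF1, a regulator of lipid synthesis, rose by 0.43, and EBP and ACACA, enzymes of a late step of cholesterol synthesis and the start of fatty acid synthesis, fell by 0.32 and 0.22. In polyamine metabolism 1 of 11 genes tested rose (9.09%) and 3 fell (27.3%). SMOX, spermine oxidase, rose by 0.91, and the synthesis genes AMD1, SRM and SMS fell by 0.37, 0.20 and 0.19. Histone genes had 1 that fell (7.14%) and none that rose of 14, again beside 10.6%.

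Other transcription factor, surface and matrix genes changed singly. KLF4, a zinc finger factor, had 6.91, 5.95 and 6.92 CPM with vehicle and 50.6, 46.8 and 45.7 CPM with pentamidine in PC3-labelled samples. It had 2.83, 2.52 and 2.75 CPM with vehicle and 9.64, 8.41 and 5.76 CPM with pentamidine in DU145-labelled samples, so that the groups were apart in both lines. Of 22 immediate early genes 5 rose (22.7%) and 2 fell (9.09%), beside 10.6% of all genes tested in each direction. Those that fell were EGR1 and KLF10, at -0.41 and -0.66, and FOS and JUN had -0.87 and -0.045 and were not shared. TGFBI, a matrix protein induced by TGF-beta, fell from 25.3 ± 3.04 to 12.2 ± 1.68 CPM in PC3-labelled and from 2.97 ± 0.535 to 1.32 ± 0.126 CPM in DU145-labelled samples (SD, n = 3), and ERBB3, a receptor of the EGFR family, rose by 0.82. In that list 2 genes rose (10.5%) and 5 fell (26.3%) of 19, beside the same 10.6%. ITGB4, CTGF and MMP14, an integrin, a matrix signalling protein and a matrix protease, rose by 1.16, 0.96 and 0.69, and THBS1, a matrix glycoprotein, fell by 0.61. Of 25 matrix and adhesion genes 4 rose and 4 fell, again beside 10.6% of all genes tested in each direction. Of 15 keratin, junction and epithelial-mesenchymal genes 3 rose and none fell, beside the same 10.6%. Those 3 were the keratins KRT80 and KRT7 and the mesenchymal marker VIM, at 0.95, 0.83 and 0.37. TSC22D3, a glucocorticoid-induced leucine zipper gene, was among the largest rises of the whole set, with 11.6-fold and 3.39-fold. C15orf48, a paralog of a respiratory subunit, and PDZK1IP1, a small membrane protein, were among the 21 genes that fell by more than 2-fold in each line. The log2 fold change of C15orf48 was -1.15 ± 0.26 (SE) in PC3-labelled and -1.94 ± 0.12 (SE) in DU145-labelled samples. That of PDZK1IP1 was -1.01 ± 0.34 (SE) in PC3-labelled and -1.83 ± 0.35 (SE) in DU145-labelled samples. The drug exporter ABCC3 changed evenly, from 21.3 ± 2.67 to 45.2 ± 1.21 CPM and from 8.48 ± 2.49 to 17.3 ± 1.04 CPM (SD, n = 3).

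At the 2-fold threshold, ISG20 lay just inside with 1.01 in the line with its smaller change and ZNF497 just outside with 0.997. Among lower genes PDZK1IP1 lay just inside and AC021218.1 just outside, with -1.01 and -0.974. Of the 96 genes that rose by more than 2-fold in each line 75 were protein coding, 69 had at least 10 counts in every pentamidine sample, and 16 had a group whose samples all had at most 3 counts. Among the 96 was 1 nuclear copy of a mitochondrial gene, with the limit on its reads given next for such copies. Of the 21 that fell 12 were protein coding and 5 were nuclear copies of mitochondrial genes (MTATP6P1, MTCO1P12, MTND2P28, MTND4P12 and MTND5P11), whose reads cannot be separated with confidence from those of the mitochondrial genome. The share of genes that met the rule was larger at higher counts. The shared genes were 5.36, 17.8, 24.4 and 37.4% of the genes in the quartiles of mean CPM, from lowest to highest.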

How the data were processed

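RNA-seq was analysed from 12 samples grouped by the labels. The counts of reads per gene were deposited by the authors without normalization; per the submitters' processing notes, reads were processed with HISAT2 2.1.0, GRCh38 and DESeq 1.18.1, and the counting program, strand setting and annotation release are not given in the sources used here. A table named for FPKM and the deposited tables of the authors' fold changes and p-values per line were not used. Of 33595 entries, 32077 genes were kept after merging the identical entries of 137 names under several identifiers. Another 24 names that a spreadsheet had turned into dates were restored by identifier from GENCODE release 29, and 44 lines without an identifier were left out.

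Genes passing edgeR's filterByExpr (minimum count 10) were tested with edgeR 4.0.16 (R 4.3.3), TMM normalization, the quasi-likelihood test with line as a term, and Benjamini-Hochberg adjustment over all genes. The interaction was tested in a model of all 12 samples. CPM was computed with TMM-adjusted library sizes. Genes mapped to mitochondrial DNA were left out of the counts given. The 35 gene lists, the members and the promoter motifs were chosen with earlier results of these data known. Genes were named by rule: the 12 largest changes per direction, up to 4 members per list with its factors and sensors, the 5 most equal and unequal, the 5 most abundant per direction, the 3 largest non-coding, genes the study measured by qPCR, and those beside the 2-fold threshold. Not all are described, and a few genes and a gene list that were tested are not reported here. Other list members were chosen after their values were seen. Alternatives were DESeq2 1.42.0, RLE and library-size scaling, TMM without mitochondria-encoded genes, other filters, a replicate block, limma 3.58.1 on log2(CPM + 1) and log2(CPM + 0.1), other thresholds, each line on its own, and each sample left out. The procedure was tested on simulated data. At 13514195 to 15131436 counts per sample, 3 counts were taken as the limit of detection, for counting error only.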

Additional observations from a re-analysis of the deposited data

Results flagged for a closer look

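Of the genes named by rule, 75 are listed here that responded to a different degree in the lines. This was tested by the interaction of treatment and line (adjusted p below 0.05 over all genes, edgeR, n = 3 per group). Other genes described above are not covered, so their absence here does not mean an equal response. In the list of NF-kB targets, for example, the interaction passed for 20 of 29 genes. The values are differences of log2 fold changes, DU145-labelled minus PC3-labelled, so that a negative value of a gene that rose means a larger rise in PC3-labelled samples. In the integrated stress response the interaction was -1.39, -1.02, -2.35, -1.47 and -0.74 for ATF3, CHAC1, JDP2, DDIT3 and TRIB3. Among amino acid genes it was -0.96, -0.62, -1.67, -1.93 and -1.07 for PCK2, PSAT1, SLC1A4, SLC6A9 and SLC7A5. For the tRNA synthetases CARS, GARS, SARS and WARS it was -0.22, -0.64, -0.63 and -0.84. The secreted factors and mTORC1 restraints ADM2, GDF15, STC2, DDIT4, SESN2 and EIF4EBP1 had -2.14, -0.54, -1.60, -3.25, -1.83 and -0.40. Values of -0.50, -1.04, -0.96, -0.32 and -1.17 were found for FTL, HMOX1, MAP1LC3B, SQSTM1 and SMOX, of the antioxidant, autophagy and polyamine genes. For CDKN1A, CDKN2B and GADD45A, which act in cell cycle arrest, the values were -0.51, -0.66 and -1.13. The mitochondrial chaperone and protease genes GRPEL2, HSPA9 and LONP1 had -0.63, -0.41 and -0.56. ATF6 and XBP1, of the unfolded protein response, had -0.45 and -1.21. Genes of protein synthesis had smaller values, -0.22, -0.33, -0.29, -0.21 and -0.31 for EEF1A1, EEF1A1P5, EEF2, RPL3 and RPS18. The remaining genes that rose, CTGF, ISG20, KLF4, KRT7, SLC2A1, TSC22D3 and MMP14, had -1.24, -1.53, -1.30, -1.14, -0.27, -1.78 and 0.39. Of the genes that fell, the cell cycle genes ANLN, CLSPN, ECT2, FEN1, MCM10, MKI67 and ORC1 had 0.63, 0.82, 0.53, 0.84, 0.80, 0.52 and 0.96, each with the larger fall in PC3-labelled samples. The chaperones HSP90AA1, HSP90B1, HSPA1A, HSPA1B, HSPA8, HSPH1, MANF and SDF2L1 had 0.48, 0.36, 0.73, 0.73, 0.29, 0.33, 0.57 and 0.73, again with the larger fall in PC3-labelled samples. So did BOP1, KLF10, PFKFB3, PSMD1, PSMD11, SRM, TFAM, THBS1 and TRMT10C, with 0.22, 0.26, 0.46, 0.34, 0.27, 0.20, 0.26, 0.25 and 0.29. The larger fall was in DU145-labelled samples for BCL2A1, BIRC3, C15orf48, CXCL1, DDX58 and TNF, with -1.92, -0.41, -0.79, -1.99, -0.44 and -1.06. Of all genes tested, 20.4% had an interaction.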

How the results depend on the processing

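Of the 3233 shared genes, 2777 to 3188 remained shared under each of the alternatives refitted over all genes, and 0 reversed. When the adjusted p had to lie below 0.05 in each line on its own, 1281 genes were higher and 1290 lower. Past 2-fold these were 81 and 16. The number that changed by more than 2-fold in each line also depended on genes with low counts: it was 37 higher and 5 lower with at least 10 counts required in every sample, and 41 and 4 with limma on log2(CPM + 1), a scale that understates the change of low genes. With a fold change of 1.5 in place of 2 it was 303 and 77. At an adjusted p below 0.01 the interaction passed for 1982 genes. With each sample left out in turn, 1644 to 1782 genes were higher, 1627 to 1820 lower, 100 to 117 more than 2-fold higher, 22 to 29 more than 2-fold lower, and 2630 to 3254 had an interaction, where the smaller group of 2 samples makes non-overlap easier to meet.

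The labels do not say whether samples with the same replicate number were handled together. Deviations of samples with the same number correlated at -0.00749, 0.0513 and -0.293 in PC3-labelled and at -0.0144, -3.84e-05 and 0.0452 in DU145-labelled samples. With 3 samples per group, deviations from the group mean cannot decide whether the samples were paired. With the replicate block the counts were 1535 higher, 1521 lower, 98 and 21 past 2-fold, and 2789 with an interaction, all within 1.5 times the values above, and not every sample correlated best with its own number.

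For named genes, 24 of 3731 refits changed the side of the threshold, all of them for E2F1, SREBF2, HSF1, EIF2AK4 or NRF1. Many named genes were picked for shared changes in these same samples, so this share does not carry over to other genes. Of 735 list medians 79 moved by more than the spread between replicates. The sign changed under at least 1 alternative for the lists of cyclins, cholesterol synthesis, nuclear respiratory chain, histones and polyamines, whose medians lie near 0, and for no other list reported here. The depth limits statements on genes with 3 counts or fewer in a group.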

Other observations

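Genes that do not encode protein took a larger part of the rise than of the fall. Of 2765 such genes tested, 193 (6.98%) rose and 52 (1.88%) fell, beside 11.4% and 12.6% of the protein-coding genes. Among non-coding genes with the largest changes, AL645608.3 had 0, 0 and 0 counts with vehicle and 6, 3 and 6 with pentamidine in PC3-labelled samples, and 6, 8 and 6 and 29, 24 and 14 in DU145-labelled samples. AC008760.2 fell from 18, 11 and 10 to 3, 5 and 8 counts and from 95, 92 and 109 to 12, 18 and 16. Whether counting used the strand is not given in the sources used here, so reads of such genes cannot be told apart from those of overlapping genes.

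Protein-coding genes that rose had a median longest transcript of 3607 bases and a median GC content of 51.6%, those that fell 4291 bases and 45.5%, and all tested 3757 bases and 48.2% (transcripts of GENCODE release 29). The part of length and base composition in the response was not tested.

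A change by more than 2-fold in each line rested on very low DU145-labelled counts for IAPP and PAK3. IAPP, which encodes islet amyloid polypeptide, had 27, 18 and 22 counts with vehicle and 0, 0 and 0 with pentamidine in PC3-labelled samples (at least 7.53-fold lower, with 3 counts per library as the floor), and 2, 2 and 1 and 0, 0 and 0 in DU145-labelled samples. PAK3, a signalling kinase, had 3, 13 and 13 and 29, 21 and 23 counts, and 0, 0 and 0 and 3, 5 and 1, in the same order. In DU145-labelled samples all IAPP counts were at or under the floor of 3, so no change could be measured there, and for neither gene did the interaction of treatment and line pass (adjusted p = 1.00 and 0.165, edgeR).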
